A study of Caenorhabditis elegans with 4 samples.

Results

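Among the genes of Caenorhabditis elegans whose names begin with nlp, flp or ins and end in a number, 5 of 111 passed the test for a difference in RNA level between rde-3 mutants and wild-type animals. They encode the precursors of neuropeptide-like proteins, of FMRFamide-related peptides and of insulin-like peptides. The authors' deposited table of 18638 features, genes and repeat elements together, holds these 111 genes, 51 nlp, 30 flp and 30 ins. They were chosen by name alone. Of the nlp genes, 10 carry numbers from nlp-24 to nlp-34, a range that includes genes best known from the epidermis, and the remaining 41 are mostly neuronal, with exceptions such as nlp-40 of the intestine.

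Neuropeptide precursors enter the secretory pathway, are cut at pairs of basic residues, are often amidated at the new end and are released from dense core vesicles. Flp and nlp peptides act mostly on G protein-coupled receptors, and insulin-like peptides act on the receptor DAF-2. Some products of the nlp-24 to nlp-34 range, among them those of nlp-29 and nlp-31, are small antimicrobial peptides that the epidermis makes after fungal infection or wounding.

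The RNA was poly(A)-selected from whole gravid adults in 4 libraries, 2 of N2, the standard laboratory wild type, and 2 of the strain YY1449, described as rde-3. RDE-3, or MUT-2, is a ribonucleotidyltransferase of RNA interference, which extends target RNAs with poly(UG). The labels call the libraries biological replicates and give no allele and no age beyond the stage. With 1 strain per genotype, rde-3 and any further difference of YY1449 from N2 cannot be told apart. The libraries were of whole animals, so fewer cells of a type and less RNA per cell cannot be told apart.

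For each feature the authors deposited its normalized count averaged over 4 libraries, the log2 fold change and standard error, and p-values before and after adjustment over all features. The comparison names the mutant first, and positive values were taken to mean more RNA in the mutants. The reads of each library were solved from the deposited means for features with means under 1000, as set out in the account of processing, and this gave values per library for 110 of the 111 genes. The libraries of a group are named A and B, A being the one with the larger size factor. Which of the labelled replicates each one is could not be read from the means. The depth of a whole library is unknown, and the size factors were 1.42 and 0.963 for wild-type libraries A and B and 1.06 and 0.707 for mutant libraries A and B. With 2 libraries against 2, no exact permutation test of a single gene can give a p below 0.333.

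Most of the peptide genes had few reads. The median of the mean normalized count was 18.8 for flp genes, 12.3 for nlp genes and 4.81 for ins genes, and 55 of the 111 genes were under 10. Per kilobase of exon, a scale on which genes can be compared, the highest levels belonged to nlp-40 with 2593 normalized counts, nlp-27 with 1829, nlp-36 with 1399, nlp-24 with 1061 and nlp-33 with 765. Peptides of nlp-40 are released from the intestine and drive the defecation rhythm. The flp genes of highest level per kilobase were flp-28 with 274 and flp-6 with 196, and the ins genes were ins-17 with 61.0 and ins-7 with 40.8.

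**Figure D1:**
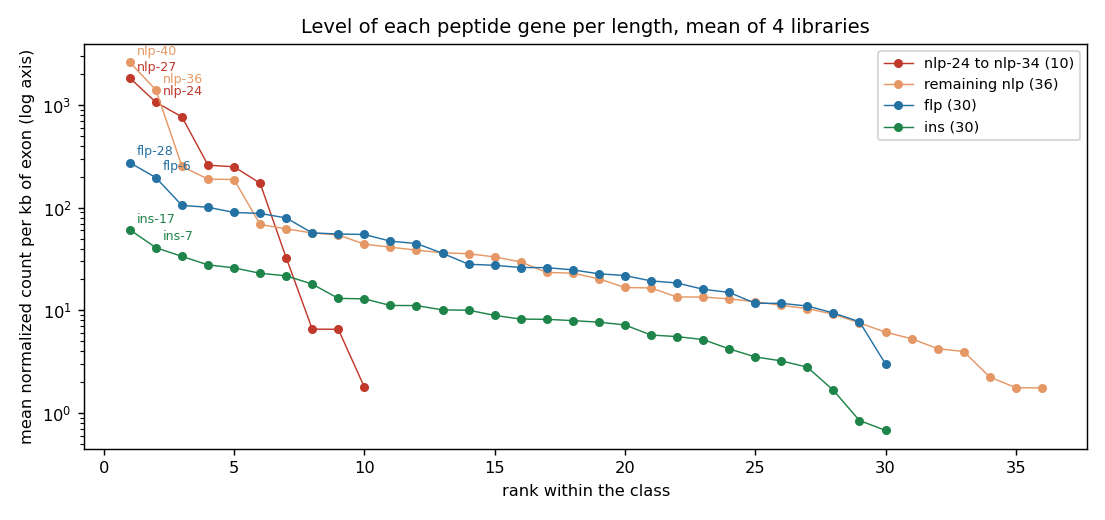
Mean normalized count per kilobase of exon (log axis) for each peptide gene with an annotated exon length, ranked within its class. Points are means of 4 libraries. The steep line of nlp-24 to nlp-34 runs from 1829 for nlp-27 to 1.79 for nlp-25, and the highest ins gene is at 61.0.

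An adjusted p of 0.05 was passed in the authors' deposited table by 5 of the 111 peptide genes, against 17.5% of all features. Nlp-36 and ins-31 were higher (2 of 111, against 9.42% of all features) and nlp-24, nlp-27 and nlp-33 were lower (3 of 111, against 8.04%). The share that passed depended on the level. Of features with means under 10, 0.58% passed, and of peptide genes 1 of 55 did. Between 10 and 100, 12.7% of features and 0 of 46 peptide genes passed. Between 100 and 1000 the figures were 26.3% of features and 4 of 9 peptide genes, namely nlp-24, nlp-27, nlp-33 and nlp-36. Above 1000, 47% of features passed and nlp-40, the only peptide gene there, did not (log2 0.31 ± 0.13, adjusted p = 0.078 from the authors' deposited table).

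The median log2 fold change of peptide genes with a mean of at least 10 differed in sign between sets of 3 libraries. With all 4 libraries it was -0.05 over 56 peptide genes and 0.00 over 12436 features. By class it was -0.16 over 27 nlp genes, -0.02 over 23 flp genes and -0.08 over 6 ins genes. Within the nlp genes it was -0.32 over 7 genes of the nlp-24 to nlp-34 range and -0.10 over the other 20. Leaving out 1 library at a time, without nlp-40, moved it over all peptide genes from -0.45 without mutant library B to 0.12 without wild-type library A. The extremes were -0.49 without mutant library B and 0.35 without mutant library A in flp genes. They were -0.53 without wild-type library B and 0.68 without wild-type library A in ins genes. In the nlp-24 to nlp-34 range they were -0.80 and 0.12, and in the remaining nlp genes -0.23 and 0.01, again without wild-type libraries B and A. For 43 of the 56 genes the 95% interval of the deposited change lay within 4-fold in either direction, so larger changes were outside the interval for these. For the other 13 it did not, 12 of them with means under 20 and the last nlp-29, with a mean of 91.7.

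**Figure D2:**
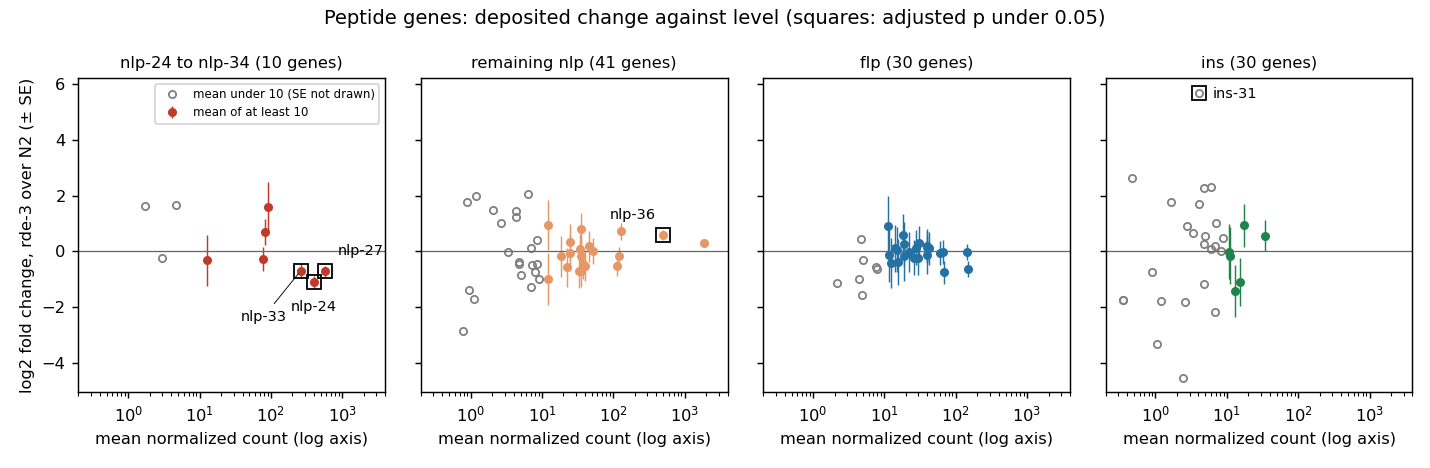
Deposited log2 fold change, mutant over wild type, against mean normalized count (log axis) for the peptide genes by class, with standard errors for means of at least 10. Squares mark the 5 genes past an adjusted p of 0.05. Of the 4 such genes with means of at least 10, nlp-24, nlp-27 and nlp-33 lie below 0 and nlp-36 above it, while ins-31, at 5.68, has a mean of 4.02.

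In the nlp-24 to nlp-34 range the 3 most abundant genes, nlp-27, nlp-24 and nlp-33, fell, and the other 7 did not pass. All 10 listed genes lie on chromosome V (build WBcel235), and 6 of them, nlp-34, nlp-31, nlp-30, nlp-29, nlp-28 and nlp-27, stand in an interval of 10946 bases from 3978825 to 3989770. Nlp-34 is transcribed to the left and the other 5 to the right. Nlp-24 (11616376 to 11616828), nlp-33 (11147346 to 11147737) and the neighbouring pair nlp-25 and nlp-26 lie elsewhere on the chromosome. How reads matching more than 1 gene were counted is not given in the sources used here, so the division of reads between similar genes of the interval is uncertain.

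Nlp-24 had 612 and 474 normalized counts in wild-type libraries A and B and 230.1 and 283 in mutant libraries A and B. Every mutant library was below every wild-type library. In the authors' deposited table nlp-24 stood 2.13-fold below the wild type (log2 -1.09 ± 0.21, adjusted p = 9.0e-06), the smallest adjusted p among the peptide genes. Its exons overlap those of the globin-like gene glb-15, whose mean normalized count was 3.71.

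Nlp-27, at the right end of the interval, had 838 and 593 normalized counts in wild-type libraries A and B and 419 and 462 in the mutant ones. The groups did not overlap, and the distance between the wild-type libraries was larger than that from wild-type library B to the nearest mutant library. The decrease was 1.63-fold in the authors' deposited table (log2 -0.70 ± 0.20, adjusted p = 0.0043). Nlp-33 had 355 and 292 normalized counts in the wild-type libraries and 161 and 245 in the mutant ones. Again the groups did not overlap, with mutant library B nearest to the wild type. The authors' deposited table gave a 1.61-fold decrease (log2 -0.69 ± 0.26, adjusted p = 0.044). Nlp-27 and nlp-33 lost their calls when a trend of log2 values with transcript length was removed (log2 -0.35, adjusted p = 0.289, and -0.32, adjusted p = 0.543). The call for nlp-24 held there (log2 -0.72, adjusted p = 0.0090). With limma's voom on the solved reads, a test across features that weights each value by its precision, both calls were also lost without wild-type library A (adjusted p = 0.167 and 0.142), and that of nlp-33 without mutant library A (adjusted p = 0.158).

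Nlp-29, the best studied of the antimicrobial peptide genes of the epidermis, had 67.7 and 23.9 normalized counts in wild-type libraries A and B and 81.4 and 194 in mutant libraries A and B. The mutant libraries lay above the wild-type ones, but the 2 libraries of each genotype differed 2.83-fold and 2.38-fold from each other. Its deposited log2 value, 1.58 ± 0.90, did not pass (adjusted p = 0.274 from the authors' deposited table). It passed with limma's voom on the solved reads (log2 1.43, adjusted p = 0.025), and lost that call without wild-type library B (log2 0.81, adjusted p = 0.146). Without 1 library at a time its log2 value ran from 0.81 to 2.29. Nlp-28 had 86.0 and 40.5 normalized counts in the wild type and 71.0 and 137 in the mutants, and its groups overlapped (log2 0.69 ± 0.45, adjusted p = 0.370 from the authors' deposited table). Nlp-31, which likewise encodes an antimicrobial peptide, had 103.6 and 65.4 against 52.1 and 90.5, with overlapping groups (log2 -0.27 ± 0.42, adjusted p = 0.828 from the authors' deposited table).

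The other 4 genes of the range had few reads. Nlp-26, whose exons overlap those of Y43F8C.3 (mean normalized count 70.5), had from 8.31 to 19.7 normalized counts per library, with overlapping groups (log2 -0.32 ± 0.92 in the authors' deposited table). Nlp-30 had from 1.41 to 11.3, nlp-25 from 0 to 5.66 and nlp-34 from 0.705 to 3.79. Their deposited adjusted p-values were 0.629, 0.973 and 0.807.

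**Figure D3:**
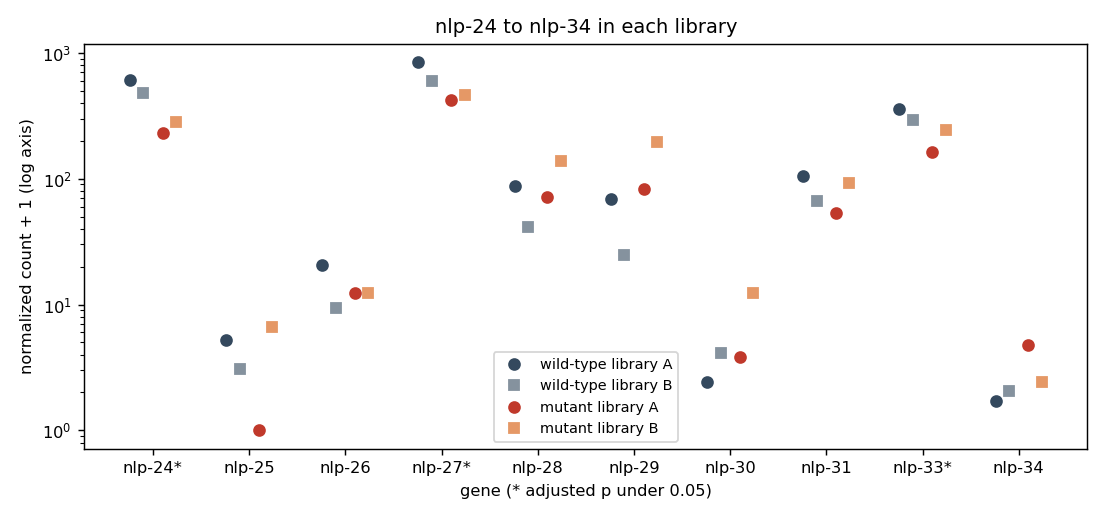
Normalized count plus 1 (log axis) of the 10 listed genes of the nlp-24 to nlp-34 range in each of the 4 libraries. For nlp-24, nlp-27 and nlp-33, marked with an asterisk, both mutant libraries lie below both wild-type libraries, and for nlp-29 both lie above, with values from 23.9 to 194.

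**Figure D4:**
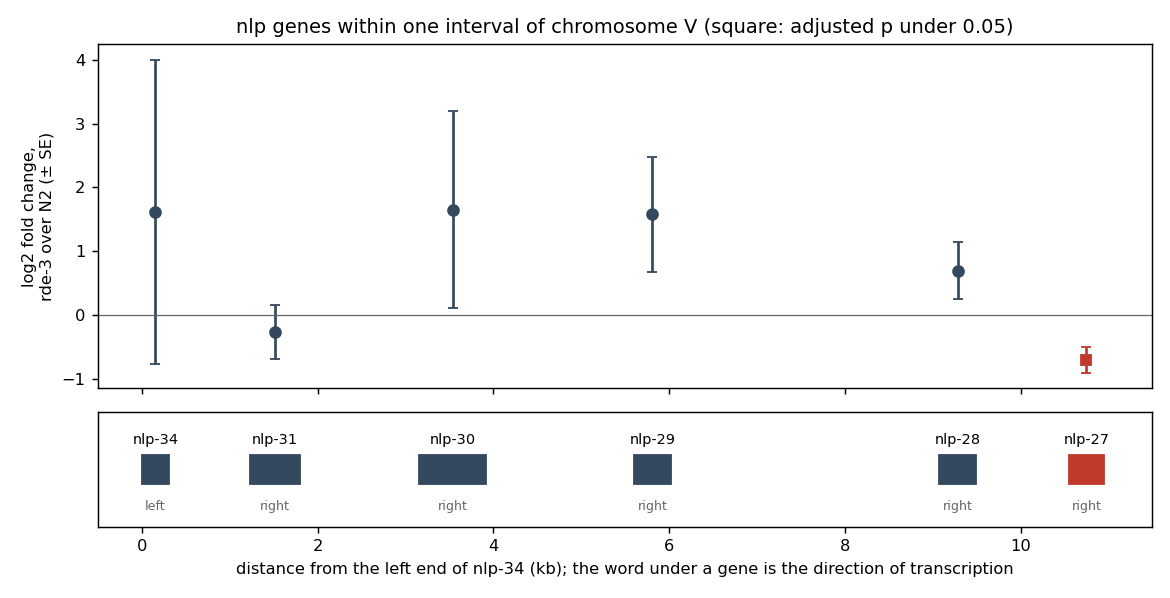
Deposited log2 fold change with standard error (upper panel) of the 6 nlp genes in one interval of chromosome V against distance in kilobases from the left end of nlp-34, with the genes drawn to scale below. Within 10946 bases the values run from -0.70 for nlp-27 to 1.65 for nlp-30, and nlp-27 is the only gene of the 6 past the threshold.

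Outside this range 1 of the 41 nlp genes passed, against 17.5% of all features, and 21 of the 41 had means under 10, where 0.58% did. Nlp-36 (chromosome III, 9488731 to 9489186) had 360 and 429 normalized counts in the wild-type libraries and 593 and 588 in the mutant ones, so that the groups did not overlap. It was 1.5-fold higher (log2 0.59 ± 0.18, adjusted p = 0.011) from the authors' deposited table. Its exons overlap those of the aspartyl-tRNA synthetase gene dars-1, whose mean normalized count was 7876 and whose log2 value was 0.02 ± 0.11. The library kit keeps no record of the strand, so reads of the shared bases cannot be assigned to either gene. The call was lost with limma's voom without wild-type library A (adjusted p = 0.151). Nlp-56 had 90.3 and 106 normalized counts in the wild type and 176 and 146 in the mutants, without overlap. It missed the threshold (log2 0.72 ± 0.31, adjusted p = 0.088) from the authors' deposited table and passed with limma's voom (adjusted p = 0.015). That call was lost without mutant library A (adjusted p = 0.086) and without wild-type library A (adjusted p = 0.207). Of the rest, nlp-3 had the largest deposited log2 change among genes with a mean of at least 10 (-0.99 ± 0.93, adjusted p = 0.629), from libraries of 16.2 and 15.6 against 7.58 and 8.49.

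No flp gene passed in the authors' deposited table, against 17.5% of all features. Of the 30, 7 had means under 10, where 0.58% of features passed. A further 21 had means of 10 to 100 (12.7%), and 2 had means of 100 to 1000 (26.3%). Flp-28 was the only 1 of 30 with an unadjusted p under 0.05, and the share of all features under that threshold is not given here. With limma's voom on the solved reads 2 of 23 passed, flp-10 and flp-28. Flp-10 was lost without mutant library A, wild-type library A or wild-type library B (adjusted p = 0.30, 0.166 and 0.135), and flp-28 without wild-type library A or B (adjusted p = 0.180 and 0.086). In that test 8 of 55 peptide genes passed, against 31.1% of the 9567 features with means of 10 to 1000. Of the 8, 3 were higher (13% of features) and 5 were lower (18.1%). Flp-28 had 185 and 179 normalized counts in the wild-type libraries and 122 and 113 in the mutant ones, with small distances within each genotype (log2 -0.63 ± 0.28, adjusted p = 0.116 from the authors' deposited table). Flp-10, a ligand of the receptor EGL-6, had 84.6 and 87.2 against 43.6 and 59.4, also without overlap (log2 -0.75 ± 0.41, adjusted p = 0.234 from the authors' deposited table). Flp-6 showed no such separation, with 140.3 and 149.5 against 154 and 127 (log2 -0.03 ± 0.29). Among flp genes with means of at least 10 the largest deposited value, 0.91 ± 1.07, was that of flp-13, whose peptides promote sleep after stress. It came from libraries of 11.3 and 4.15 against 4.73 and 25.5, which overlapped.

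Among the insulin-like peptide genes ins-31 passed (chromosome II, 3127041 to 3127831), on very few reads. It had 0 and 0 reads in the wild-type libraries and 11 and 4 in mutant libraries A and B. The 15 mutant reads were taken as exact, and 3 reads as the most that 0 wild-type reads allow, summed over both libraries. On that basis ins-31 was at least 6.75-fold higher, which covers counting error of the wild-type reads only. Its deposited log2 value was 5.68 ± 2.12, with an adjusted p of 0.044. The reverse case, ins-13, had 12 reads in the wild type and 0 in the mutants and did not pass (adjusted p = 0.229 from the authors' deposited table). Its exons overlap those of acdh-2. Of the 6 ins genes with a mean of at least 10, 0 passed in the deposited table or with limma's voom, and 0 had an unadjusted deposited p under 0.05. All 6 had means of 10 to 100, where 12.7% of features passed in the deposited table. With limma's voom 31.1% of features with means of 10 to 1000 passed. Ins-7, which encodes a ligand that activates DAF-2, had 14.1 and 9.34 normalized counts in the wild type and 19.9 and 25.5 in the mutants (log2 0.93 ± 0.78, adjusted p = 0.557 from the authors' deposited table). Ins-4, another activating ligand, had 21.2 and 19.7 against 5.68 and 14.1 (log2 -1.08 ± 0.86, adjusted p = 0.521). Ins-23 had 20.4 and 17.6 against 4.73 and 9.90 (log2 -1.42 ± 0.92, adjusted p = 0.371), and ins-17 had 31.7 and 22.8 against 38.8 and 42.4 (log2 0.56 ± 0.56, adjusted p = 0.657). In each of these 4 genes, out of the 6, the groups did not overlap, in opposite directions between genes. Of all features with means of 10 to 1000, 66.1% likewise had groups that did not overlap.

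Within each genotype most peptide genes lay higher in the same library. Of the 55 peptide genes with means of 10 to 1000, 46 were higher in wild-type library A than in B (83.6%, against 51.4% of 9567 features), with a median ratio of 1.37. In the mutants 42 of the 55 were higher in library B than in A (76.4%, against 48.8% of features), with a median ratio of 1.34. Both held for 38 genes, 69.1%, against 31.4% of features. In each genotype the library named is the one where most peptide genes were higher, so these shares are a description and not a test. By class both held for 17 of 23 flp, 5 of 6 ins and 16 of 26 nlp genes. Flp-1, whose peptides modulate locomotion, had 59.2 and 20.8 normalized counts in wild-type libraries A and B and 15.2 and 60.8 in mutant libraries A and B. Flp-8 had 27.5 and 11.4 against 4.73 and 31.1. In these genes the distance between libraries of the same genotype exceeded the distance between the genotype means.

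Among nlp genes both held for 6 of 7 in the range nlp-24 to nlp-34 and for 10 of the remaining 19. Of 16 neuronal markers, 11 were higher in wild-type library A and in mutant library B, among them the synaptic vesicle gene rab-3, with median ratios of 1.2 and 1.12. In the epidermal markers this held for 5 of 9, and in genes that process and release peptides for 6 of 16. Of features with exon lengths of 400 to 700 bases, 33.4% were high in these same libraries, and of peptide genes of that length 19 of 27. Its part in the results by genotype was not tested.

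**Figure D5:**
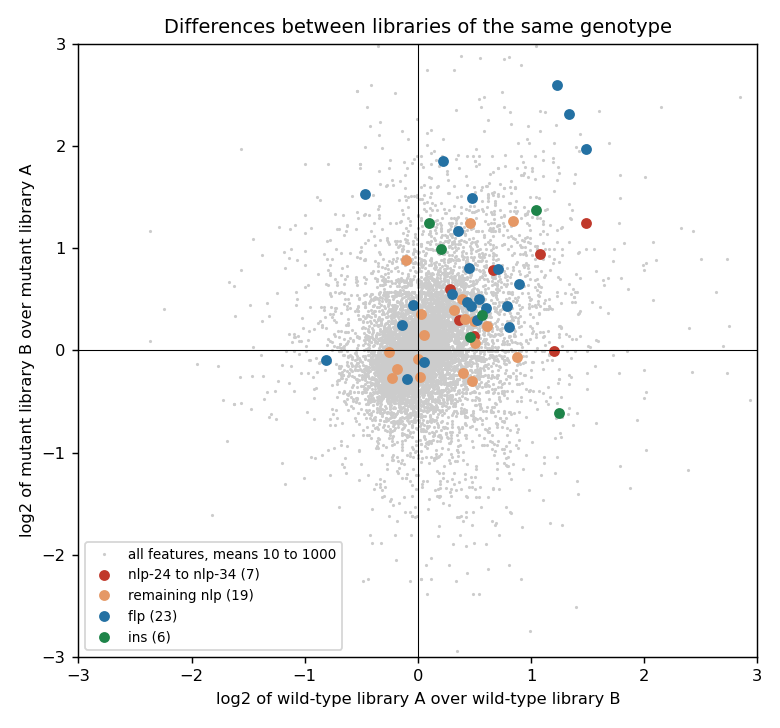
Log2 ratio of wild-type library A over B (x axis) and log2 ratio of mutant library B over A (y axis), with 0.5 added to each normalized count, for the peptide genes with means of 10 to 1000 (coloured by class) and all 9567 features of that range (grey, 20 features beyond the axes). Of the 55 peptide genes, 38 lie in the upper right part, above 0 on both axes.

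The genotypes overlapped in 34 of the 55 peptide genes. In the other 21 all mutant values lay on the same side of all wild-type values, 8 above and 13 below, against 66.1% of features (29% above and 37.1% below). By class these were 14 of 26 nlp, 3 of 23 flp and 4 of 6 ins genes.

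Of 18 genes that process or release peptides 1 passed in the authors' deposited table (unc-108, a Rab2 GTPase of dense core vesicle maturation, log2 0.35 ± 0.13, adjusted p = 0.039), and its call was lost after recentring on abundant features (adjusted p = 0.103). Of all features 17.5% passed, and of those with means of 100 to 1000, where 12 of the 18 lay, 26.3%. With limma's voom 1 of 16 passed, ric-19, which was higher, against 31.1% of the features tested. Ric-19 had the largest deposited log2 change of the list, 1.13 ± 0.58 (adjusted p = 0.196). It had 23.3 and 17.6 normalized counts in the wild type and 36.9 and 53.7 in the mutants. The proprotein convertase gene egl-3 had 644 and 684 normalized counts in the wild type and 568 and 482 in the mutants (log2 -0.33, adjusted p = 0.206 from the authors' deposited table). The carboxypeptidase gene egl-21 had 641 and 642 against 580 and 607 (log2 -0.11, adjusted p = 0.802). For bli-4, the most abundant, the authors' deposited table gave log2 0.28 ± 0.11 and adjusted p = 0.068. Of 5 other peptide hormone genes 0 passed in the deposited table, against 17.5% of all features, and 0 had an unadjusted p under 0.05. Limma's voom tested only the 3 with means of at least 10, and 0 of these passed, against 31.1% of the features tested. All 5 had means under 100. They included pdf-1, the most abundant, at log2 0.16 ± 0.44.

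Of 93 genes named as neuropeptide receptors 4 were lower and 0 were higher in the authors' deposited table. Egl-6, the receptor of FLP-10 and FLP-17 that inhibits egg laying, had 177 and 178 normalized counts in the wild type and 74.8 and 97.6 in the mutants (log2 -1.05 ± 0.31, adjusted p = 0.0060). Pdfr-1, the receptor of the PDF peptides, had 123 and 127 against 53.0 and 42.4 (log2 -1.37 ± 0.37, adjusted p = 0.0025). Npr-5, a receptor of FLP-18 peptides, had 67.0 and 61.3 against 23.7 and 22.6 (log2 -1.47 ± 0.51, adjusted p = 0.026). Dmsr-1, a receptor of FLP-13, had 74.7 and 85.1 against 35.0 and 36.8 (log2 -1.15 ± 0.44, adjusted p = 0.0497). In these 4 genes the libraries of each genotype lay close together and the groups were far apart. The most abundant receptor gene, npr-28, had a log2 value of 0.10 ± 0.27. The 4 lower genes are 4.30% of the list, against 8.04% of all features lower and 17.5% in either direction, and 51 of the 93 had means under 10. At means of 10 to 100, 3 of 39 passed (12.7% of features), and at 100 to 1000, 1 of 3 (26.3%). With limma's voom the same 4 of 42 were lower (18.1% of features) and 1 was higher, gnrr-2 (13%). Its deposited log2 value was 0.82 ± 0.43 (adjusted p = 0.208).

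Of 15 genes of insulin signalling, which acts downstream of the ins peptides, 5 were higher and 0 were lower in the authors' deposited table. They were the receptor gene daf-2 (log2 0.78 ± 0.12, adjusted p = 9.7e-09), the PI3 kinase gene age-1 (0.69 ± 0.14), the lipid phosphatase gene daf-18 (0.78 ± 0.12), which opposes age-1, and the kinase genes pdk-1 (0.97 ± 0.24) and akt-1 (0.55 ± 0.13). Pdk-1 had 178 and 232 normalized counts in the wild type and 455 and 344 in the mutants. For the transcription factor gene daf-16 the log2 change was -0.02 ± 0.13, with an adjusted p = 0.957 from the authors' deposited table. Of 11 members with means of 1000 and above 4 passed, against 47% of features at that level. The median log2 value of these 11 was 0.29, and that of all features at that level was 0.19.

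Of 16 genes of epidermal innate immune signalling, nipi-3, a pseudokinase gene, rose, with 784 and 796 normalized counts in the wild type and 1194 and 1222 in the mutants (log2 0.61 ± 0.14, adjusted p = 0.00033 from the authors' deposited table). No other gene of the list passed, against 17.5% of all features. The most abundant, rack-1, had a log2 value of -0.27 ± 0.12 (adjusted p = 0.113). The 7 caenacin genes, which encode a related family of epidermal antimicrobial peptides, included 0 that passed in the deposited table and 0 with an unadjusted p under 0.05. Limma's voom tested only the 3 with means of at least 10, and 0 of these passed. Of features 17.5% passed in the first and 31.1% in the second, but 4 of the 7 had means under 10, where 0.58% did. The most abundant of them, cnc-8, had a log2 value of -0.52 ± 0.43.

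Cell type markers differed between the genotypes in several tissues, where 17.5% of all features passed in the deposited table and 31.1% of those tested with limma's voom. Of 20 neuronal markers 0 passed in the authors' deposited table. An unadjusted deposited p under 0.05 was found for 5, with rab-3, snb-1 and unc-18 higher and unc-119 and unc-25 lower. The share of all features under that unadjusted threshold is not given here, so these 5 cannot be set against a background. With limma's voom 3 of 16 neuronal markers passed, 1 higher and 2 lower. The 18 neuronal markers with means under 1000 summed to 2008 and 1749 normalized counts in the wild-type libraries. In the mutant ones they summed to 1567 and 1802, so the groups overlapped for these 18. The sum leaves out the 2 most abundant, unc-18 (mean 1213, log2 0.34 ± 0.14) and snb-1 (mean 1125, log2 0.36 ± 0.15). Of 12 epidermal markers 2 were higher, dpy-7 and nhr-23, and 2 were lower, the adult collagen gene col-19 (log2 -1.12 ± 0.13 in the authors' deposited table) and col-12. The summed level of the 9 epidermal markers with means under 1000 was 1201 and 1009 against 1060 and 1161. This sum leaves out the more abundant lin-26, nhr-23 and col-19, the last with a mean of 17812. Among 10 muscle markers 8 were lower, all with means of 1000 and above, where 47% of features passed. Among 9 sperm markers 6 were lower and 1 was higher, among 11 oocyte markers, all with means of 1000 and above, 9 were higher, and among 10 intestinal markers 2 were higher and 1 was lower. The part of tissue makeup in the values of the peptide genes was not tested.

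The annotation used here (Ensembl, WBcel235) names 140 genes by the same pattern. Of these, 18 are listed in the deposited table under a sequence name in place of the current one. Of the 18, 0 passed, against 17.5% of all features, with adjusted p-values from 0.433 for nlp-58 upward. Most of the 18 had means under 10, where 0.58% of features passed. A further 16, among them nlp-32, flp-23 and ins-39, were not analysed here. Current names were not matched for 5 of the 111 genes, including nlp-10 and nlp-37, which therefore have no length or position here. No sequence of a gene or peptide is shown, since the files and references used hold none.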

How the data were processed

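Poly(A) RNA of 2 N2 and 2 YY1449 libraries was compared. Tools listed, per the submitters' processing notes, were STAR 2.7.0a, cutadapt 1.14, SAMtools 1.3.1 and Trim Galore 0.4.4, with builds WBcel235 and ce11. How reads were counted and which model was fitted is not given in the sources used here. In the deposited table the authors gave a signal column, the mean over libraries of reads divided by size factors, a log2 fold change, its standard error, a score equal to their quotient, and p-values, raw and adjusted over 18638 features. No counts per library are listed, so the deposited statistics were the test, in place of a count model. Peptide genes, lists and tests were chosen with earlier results of these data known. Named genes were those past the threshold, nlp-24 to nlp-34, and per class the 3 of highest mean and the 3 of largest change at means of at least 10; related lists were described by members past the threshold and the most abundant one. Other genes named (nlp-56, flp-1, flp-8, ins-13, egl-3, egl-21, ric-19, gnrr-2, daf-16, rab-3, nlp-58) were chosen after their values were seen.

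Low means are sums of 4 fixed steps, 1 read in each library. For 15769 of 15770 features with means under 1000 exactly 1 set of whole reads matched the deposited mean within the rounding of its 15 significant digits. Steps were assigned to a genotype by the sign of the deposited log2 values. For means of 100 and above a solution had to lie within 0.3 of the deposited log2 value. For means of 10 to 100 the log2 column was not used in solving, and solved and deposited log2 values differed by a median of 0.013 over 4729 features. Steps and reads were solved in Python 3.11.15 and tested on simulated data. Reads of 9567 features with means of 10 to 1000 were also tested with limma 3.58.1 (voom, authors' size factors, R 4.3.3), an alternative chosen after seeing the data, as were the medians over all peptide genes without 1 library. Adjusted p-values are Benjamini-Hochberg. Floors take the reads of the other group as exact and cover counting error of the group with 0 reads only. The other alternatives were adjustment over means of at least 10, recentring, removal of a length trend (lowess, exon lengths of Ensembl), a t distribution with 2 degrees of freedom, a threshold of 0.01 and leaving out each library.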

Additional observations from a re-analysis of the deposited data

How the results depend on the processing

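No paired analysis was possible because the solved libraries carry no replicate number. Adjusted over means of at least 10, 4 of the 5 calls remained and ins-31 was not tested (1 higher, 0 ins). With a t distribution of 2 degrees of freedom 0 features and 0 peptide genes passed in either direction, in each class. With so few degrees of freedom even very large scores give moderate p-values, so after adjustment over all features this setting cannot separate the calls. At 0.01, 992 features were lower, 0 peptide genes were higher, 0 ins genes and 0 nlp genes outside nlp-24 to nlp-34 passed, and nlp-24 and nlp-27 remained. Without the length trend 4 peptide genes were higher, nlp-40 and nlp-56 among them, and 1 was lower, the only 1 of the range nlp-24 to nlp-34, with 3 nlp genes called outside it. With limma's voom 3 were higher and 5 were lower, 2 of them flp genes, 2 were nlp genes outside nlp-24 to nlp-34, and 0 ins genes passed; nlp-24, nlp-27, nlp-33 and nlp-36 were among the 8. Leaving out 1 library at a time in that test, with a lone library assumed to vary like the other group, gave 561 to 1323 features higher and 886 to 1759 lower, 1 to 4 peptide genes higher and 1 to 12 lower, 0 to 4 flp genes, 0 to 2 ins genes and 0 to 5 nlp genes outside nlp-24 to nlp-34. Nlp-24 passed each time. Without wild-type library A the calls for nlp-27, nlp-33 and nlp-36 were lost (adjusted p = 0.167, 0.142 and 0.151), and without mutant library A that for nlp-33 (adjusted p = 0.158). Of the 4 calls that limma's voom added, those for flp-10, flp-28, nlp-29 and nlp-56 were each lost without at least 1 library. The degrees of freedom of the test were 14.6 with all 4 libraries and 25.4 and 24.8 without wild-type libraries A and B. Without mutant library A, or without mutant library B, they were 9567. The tests thus differed in strictness, and a call lost or gained cannot be put down to a library alone. The median log2 of flp genes ran from -0.49 without mutant library B to 0.35 without mutant library A. Recentring shifted log2 values by 0.06 and changed none of the peptide gene calls. The causes of these differences were not tested. Depth limits all statements on the 55 genes with means under 10.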
